A study of Homo sapiens with 4 samples.

Results

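FAS, the TRAIL receptors TNFRSF10A and TNFRSF10B, their ligand TNFSF10, and the proteins that carry the signal from these receptors to the caspases (FADD, CASP8, CASP10, CFLAR and RIPK1) were followed in EJM cells while NF-κB was blocked. They were taken by gene symbol. Of the 9 genes named, 8 had a probe on the array, out of 4604 named genes with a probe. They were covered by 22 of 15246 probes, and RIPK1 had no probe under its symbol and has no value here. EJM is an established human line from multiple myeloma, the cancer of plasma cells, which secrete antibody. IκBα keeps NF-κB out of the nucleus, and the cells expressed a super-repressor version of it, which withstands degradation, under a tetracycline-controlled switch. On each dual-channel array, cells given 20 µg/ml doxycycline for 1, 2, 3 or 4 days (Cy5) were set against uninduced cells of the same engineered line (Cy3), with 1 array per day. Induced and uninduced cells thus both carried the construct, and the labels give neither a dye swap nor a doxycycline control without the construct, so effects of dye and of doxycycline itself cannot be told apart from that of the super-repressor. No source used here says whether the line is a single clone.

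FAS and the TRAIL receptors are cell-surface receptors whose death domains recruit the adaptor FADD when ligand binds. FADD then gathers the initiator caspases CASP8 and CASP10, which activate the executioner caspases. CFLAR (c-FLIP), a caspase-like protein without protease activity, competes for the same adaptor, and the kinase RIPK1 takes part in related complexes that can signal either to NF-κB or to death. FAS, TNFRSF10B and CFLAR have been described as NF-κB targets in other cells, and germinal-centre B cells and plasma cells can carry FAS at their surface.

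Promoter windows of the members are shown for those that held a match to the NF-κB consensus, since NF-κB was the factor blocked. The windows run from 250 bases before to 50 bases after an annotated start and come from RefSeq (GRCh38.p14). There were 15 windows for 6 members, RIPK1 included. No window was available here for TNFRSF10A, TNFRSF10B or CASP10, so these were not searched. A match on either strand was present in 2 of the 15, 1 of 3 for FAS and 1 of 4 for CFLAR, against 5.91% of all 35116 windows. Some windows of a gene overlap each other. Capitals mark the match, which begins 157 bases before the start in FAS (chr10:88991181-88991480, plus strand) and 97 bases before it in CFLAR (chr2:201118466-201118765, plus strand). The most upstream of the 3 FAS windows (chr10:88990548-88990847, plus strand) has none and is printed beside them. The FAS start with a match is the most downstream of the 3, so the match lies downstream of the other annotated FAS starts.
FAS, start with a match: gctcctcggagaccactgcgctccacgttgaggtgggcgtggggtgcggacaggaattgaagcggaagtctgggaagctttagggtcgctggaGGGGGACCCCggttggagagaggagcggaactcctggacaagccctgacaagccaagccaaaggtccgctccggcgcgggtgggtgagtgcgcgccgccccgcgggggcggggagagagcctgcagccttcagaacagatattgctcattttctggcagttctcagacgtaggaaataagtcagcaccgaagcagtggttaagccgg
CFLAR, start with a match: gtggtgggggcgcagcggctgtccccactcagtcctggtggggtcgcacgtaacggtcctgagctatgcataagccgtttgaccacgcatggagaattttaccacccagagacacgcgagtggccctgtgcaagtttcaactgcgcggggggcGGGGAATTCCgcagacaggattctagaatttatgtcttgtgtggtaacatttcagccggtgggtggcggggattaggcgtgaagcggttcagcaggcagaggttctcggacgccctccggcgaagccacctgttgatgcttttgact
FAS, most upstream window: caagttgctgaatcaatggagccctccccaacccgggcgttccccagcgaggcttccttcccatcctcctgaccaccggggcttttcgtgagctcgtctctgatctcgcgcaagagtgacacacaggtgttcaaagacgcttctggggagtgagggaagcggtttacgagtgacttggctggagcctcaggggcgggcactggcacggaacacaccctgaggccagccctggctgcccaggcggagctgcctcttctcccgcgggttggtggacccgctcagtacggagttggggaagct
A match describes these letters and is not a binding site shown here.

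All values below are deposited log ratios, taken as log2 of induced over uninduced cells, so a negative value is lower in induced cells. The orientation was read from the dyes in the labels, and the opposite one would turn every sign. The log base is not stated. Between 10321 and 13872 probes had a value on an array. The day 1 and day 2 arrays were more widely spread (SD over probes 0.517 and 0.569) than those of days 3 and 4 (0.345 and 0.38). NFKBIA, the gene from which the transgene is derived, had a mean of -0.14 ± 0.073 (SD, 4 arrays; limma adjusted p = 0.61), so it gives no check of the labels. Ratios hold no absolute level, so the identity of the cells could not be checked from their markers. Of 10 plasma cell genes 9 had a mean above 0, with a list median of 0.45, while 3390 of all 7713 features tested had a mean above 0. The T and NK cell list had a median of 0.0995 over 10 genes and the myeloid list one of -0.0939 over 4. An unadjusted limma p under 0.05 was reached by 5 plasma cell genes, all higher, against 12.5% of all features. Of the T and NK cell genes 2 reached it lower and 1 higher. Of the markers of other cells only β-globin (HBB, 0.85 ± 0.091) passed the threshold. The red cell and stromal list that holds it had a median of 0.1 over 5 genes, and its α-globin gene HBA1 had a mean of -0.14 ± 0.42.

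FAS had the lowest mean of the 8 members, its 16 probe values were all below 0, and its ratio was most negative on day 4. None of the 8 members passed a limma adjusted p of 0.05 for the mean over the 4 arrays (0 of 8, against 0.337% of the 7713 features tested). An unadjusted p under 0.05 was reached by 3 members, FAS and FADD with means below 0 and CASP10 with a mean above 0, against 12.5% of all features. Members with a mean below 0 numbered 7 of 8, against 56.0% of features, and the member median was -0.12, against -0.032 over all features. In a bulk extract, fewer cells with a transcript and less of it per cell cannot be told apart. The plot of every probe by day shows these values.

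**Figure D1:**
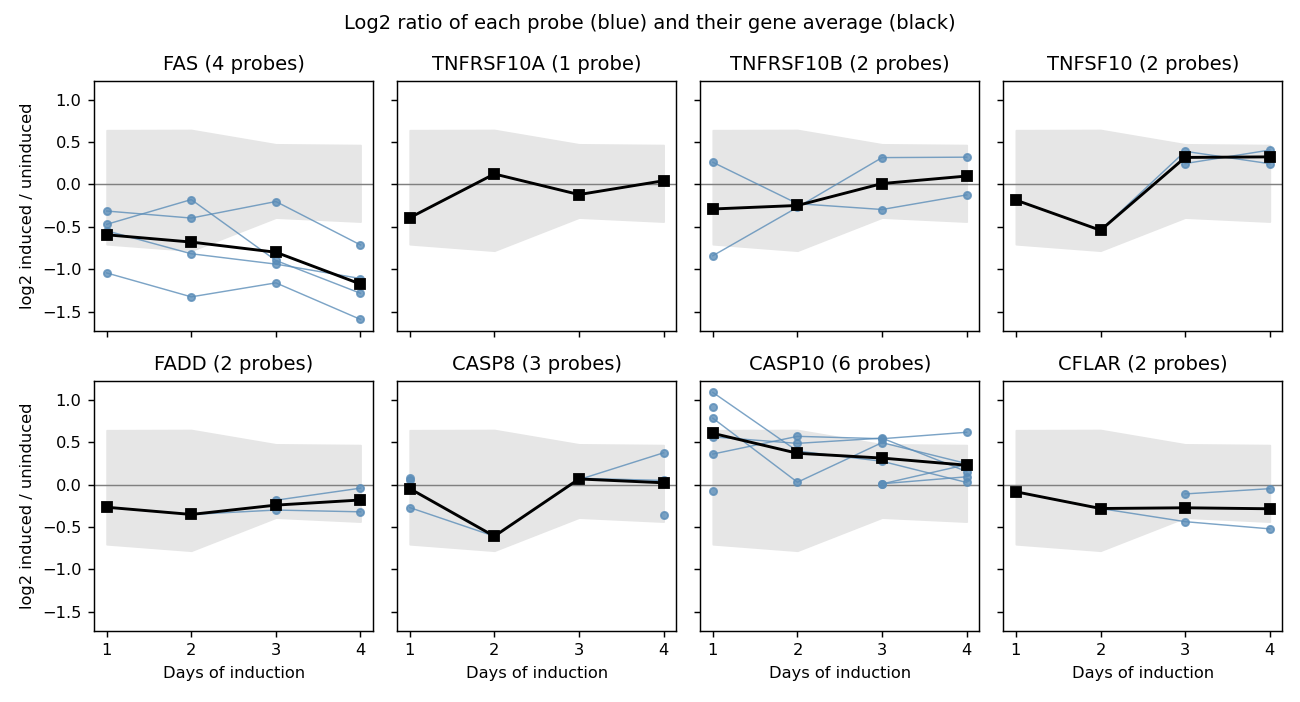
Log2 ratio of induced over uninduced cells (vertical axis) on days 1 to 4 (horizontal axis), 1 array per day, for the 8 members. Blue points and lines are probes, black squares their average, and the grey band spans the 5th to 95th percentile of all named genes tested. All FAS probes lie below 0 on every day, and the CASP10 averages all lie above it.

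FAS (CD95) is the receptor for FAS ligand. Its average over 4 probes was -0.593, -0.679, -0.799 and -1.174 on days 1 to 4. The values lay below 0 on all 4 days and were ordered by day, the last being 2.26-fold lower in induced cells and the first 1.51-fold lower. The mean was -0.81 ± 0.26 (SD, 4 arrays), which is 1.75-fold lower, with a limma 95% interval of -1.13 to -0.49 and an adjusted p of 0.0846 over 7713 features. If the deposited values were natural logs, that mean would be 2.25-fold lower. Among the named genes tested, FAS was the 344th lowest of 4106 on day 1 and the 289th of 3920 on day 2. It was the 17th lowest of 4187 on day 3 and the 8th of 4192 on day 4. The 5th percentile of named genes was -0.704, -0.78, -0.39 and -0.437 on days 1 to 4. The late ranks were thus taken within narrower distributions, and the change in rank is not one of FAS alone.

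The FAS probes agreed in sign and differed in size. Probe 16699_1 read -1.043, -1.325, -1.16 and -1.591 on days 1 to 4. Probe 29356_1 read -0.546, -0.817, -0.939 and -1.109. Probe 17626_1 read -0.47, -0.178, -0.896 and -1.283, lower on the 2 late arrays. That of the smallest mean size, 29375_1, read -0.313, -0.396, -0.201 and -0.713. Every probe had its most negative value on day 4, and the probe means ran from -1.28 to -0.41. A single sign over all values of at least 4 complete probes was seen in 16 of 275 genes with that many (5.82%), and 5 of the 16 lay below 0. When every probe was tested as a feature of its own, 16699_1 passed (limma adjusted p = 0.0276, with 0.471% of 11669 probes called), and the next was 29356_1 (adjusted p = 0.065).

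The FAS call depended on which arrays carried the weight. With days 3 and 4 alone its mean was -0.99 and passed (limma adjusted p = 0.00723, with 6.58% of features called), as it did with array weights (-0.89, adjusted p = 0.00681, with 3.77% called). With days 1 and 2 alone it was -0.64 (limma adjusted p = 0.237, with 0.0152% called). The array weights were 3.02 and 1.8 for days 3 and 4, against 0.408 and 0.45 for days 1 and 2. The weighted fit thus leaned on the same arrays as days 3 and 4 alone and is not separate from it. Those arrays had a Pearson correlation of 0.566 over probes, against 0.02 to 0.316 for the other pairs. Leaving out 1 array in turn gave means from -0.884 to -0.69, with adjusted p-values from 0.178 to 0.29. The slope on day was -0.19 ± 0.084 log2 per day (SE, 4 arrays; limma adjusted p = 0.365), and the interval of -0.4 to 0.024 includes 0. Without the day 4 array the slope was -0.103 (adjusted p = 0.946).

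TNFRSF10A, TRAIL receptor 1, had a single probe. It read -0.392, 0.124, -0.119 and 0.044 on days 1 to 4. The values fell on either side of 0, with a mean of -0.086 ± 0.23 and a 95% interval of -0.39 to 0.22 (limma adjusted p = 0.801). The interval leaves out the FAS mean, as do the intervals of all the other members with a probe, and the spread of FAS itself is not counted in this.

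TNFRSF10B, TRAIL receptor 2, averaged -0.289, -0.248, 0.011 and 0.0995 on days 1 to 4. Its mean was -0.11 ± 0.19, with a 95% interval of -0.4 to 0.18 (limma adjusted p = 0.737). The probes gave opposite pictures. Probe 16534_1 read -0.84, -0.269, 0.317 and 0.322, a slope of 0.41 log2 per day that did not pass (limma adjusted p = 0.292). Probe 28213_1 read 0.262, -0.226, -0.295 and -0.123. They agreed in sign on day 2 alone, so the average stands for neither probe on the other days. Both probes are annotated to the same RefSeq transcript, and the TRAIL receptors resemble each other in sequence, so cross-hybridisation was not tested.

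FAS lay below both TRAIL receptors on all 4 arrays, as it did below every other member with a probe, so this is not particular to the TRAIL receptors. FAS minus TNFRSF10B was -0.304, -0.432, -0.81 and -1.27 on days 1 to 4, a mean difference of -0.7 ± 0.44 (SD, 4 arrays). FAS minus TNFRSF10A was -0.201, -0.803, -0.68 and -1.22, a mean of -0.73 ± 0.42. An exact two-sided permutation test that turned the signs of the day differences gave p = 0.125 for each, the smallest it can give with 4 arrays. Differences of a single sign on all 4 arrays always give this value, so it adds nothing to the count of signs. TNFRSF10B and TNFRSF10A differed from each other by -0.021 ± 0.24, within the spread of that difference.

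TNFSF10 (TRAIL) is the ligand of these receptors. It averaged -0.184, -0.54, 0.319 and 0.326 on days 1 to 4. The values changed sign between the early and late arrays, and the mean was -0.02 ± 0.42 with a 95% interval of -0.43 to 0.39 (limma adjusted p = 0.973). The slope of 0.24 ± 0.12 log2 per day did not pass (SE; limma adjusted p = 0.394). Only probe 28691_1 had a value on days 1 and 2, while on days 3 and 4 it read 0.391 and 0.245 beside 0.247 and 0.406 for probe 16151_1. Where both probes had a value they were thus above 0. All of its day averages lay between the 5th and 95th percentiles of named genes, which were -0.704 and 0.64 on day 1 and -0.437 and 0.464 on day 4.

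FADD, the adaptor shared by these receptors, varied least among the members. It averaged -0.268, -0.353, -0.243 and -0.183 on days 1 to 4, below 0 on every day. Its mean was -0.26 ± 0.071, which is 1.2-fold lower, with a 95% interval of -0.518 to -0.0052 (unadjusted p = 0.0466, limma adjusted p = 0.392). Probe 28651_1, with a value on all arrays, stayed between -0.353 and -0.268. Probe 16102_1 had values on days 3 and 4 alone, -0.185 and -0.043, so the smaller size of those 2 averages rests on it.

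CASP10 was the single member with a mean above 0. This initiator caspase, the close relative of CASP8, averaged 0.604, 0.369, 0.312 and 0.228 on days 1 to 4. The averages lay above 0 on every day and became smaller with each, and the mean was 0.38 ± 0.16, which is 1.3-fold higher (95% interval 0.0985 to 0.66; unadjusted p = 0.015, limma adjusted p = 0.285). Of its 22 probe values 21 were above 0, the exception being -0.081 for probe 28375_1 on day 1. The probes differed most on day 1, from that value up to 1.086 for probe 17182_1. That probe gave 0.394, 0.274 and 0.024 later, whereas probe 28720_1 read 0.359, 0.568, 0.54 and 0.616. The decline of the average was therefore not shared by all probes. Its slope of -0.12 ± 0.081 log2 per day did not pass (SE; limma adjusted p = 0.489). Probes 28375_1 and 30438_1 had no value on day 2 and read 0.009 and 0.007 on day 3. The day 2 and day 3 averages are thus not of the same probes, and the fall between them rests on that. Of the 4 probes with values on all days, 17182_1 went from 0.394 to 0.274 and 28720_1 from 0.568 to 0.54. Probes 17814_1 and 32624_1 rose, from 0.485 to 0.547 and from 0.027 to 0.494. The average of these 4 probes was higher on day 3 than on day 2. CASP10 was the 237th highest of 4106 named genes on day 1 and the 803rd highest of 4192 on day 4.

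CASP8 is the main initiator caspase downstream of FAS and the TRAIL receptors. It averaged -0.048, -0.61, 0.0655 and 0.0203 on days 1 to 4. The day 2 value came from probe 30017_1 alone, which read -0.272, 0.058 and 0.374 on the other days. Probe 16104_1 read 0.057, 0.073 and 0.048 on days 1, 3 and 4. Probe 28653_1 had values on days 1 and 4 alone, 0.071 and -0.361. The averages of days 1 and 4 thus join probes of opposite sign. The mean was -0.14 ± 0.31 (95% interval -0.491 to 0.2; limma adjusted p = 0.7), and without the day 2 array it was 0.013. CASP10 lay above CASP8 on all 4 arrays, by 0.652, 0.979, 0.246 and 0.207, a mean difference of 0.52 ± 0.37 (SD). That difference is larger than its spread. The same exact permutation test gave p = 0.125, again the smallest it can give and fixed by the single sign of the differences.

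CFLAR, the inhibitor at this step, averaged -0.086, -0.283, -0.275 and -0.286 on days 1 to 4. All 6 of its probe values were below 0, and the mean was -0.23 ± 0.098, which is 1.17-fold lower (95% interval -0.49 to 0.029; limma adjusted p = 0.442). Probe 19219_1 read -0.086, -0.283, -0.438 and -0.523, more negative on each later day, while probe 27384_1 had values on days 3 and 4 alone, -0.111 and -0.049. The slope of the average, -0.059, became -0.147 log2 per day with the complete probe alone, and neither passed. Long and short forms of CFLAR differ in function, and these probes are annotated to a single RefSeq transcript. In the RefSeq gene order CFLAR, CASP10 and CASP8 are neighbours on chromosome 2 with 0 other protein-coding genes between them, and their day averages did not share a sign on any day.

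Ordered by their means, the members ran FAS, FADD, CFLAR, CASP8, TNFRSF10B, TNFRSF10A, TNFSF10 and CASP10. FAS and its neighbour FADD differed by more than the spread of that difference (0.55 ± 0.31, FAS lower on 4 of 4 arrays). The neighbours from FADD to TNFSF10 differed by 0.021 to 0.089, each within its spread, and CASP10 exceeded TNFSF10 by 0.4 ± 0.52, also within it. The same sign on all 4 arrays was held by 4 of 8 members, FAS, FADD and CFLAR below 0 and CASP10 above, against 25.1% of the 6427 features with values on every array (13.4% below 0 and 11.7% above). The means with their spread are drawn in the plot of the ordered members.

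**Figure D2:**
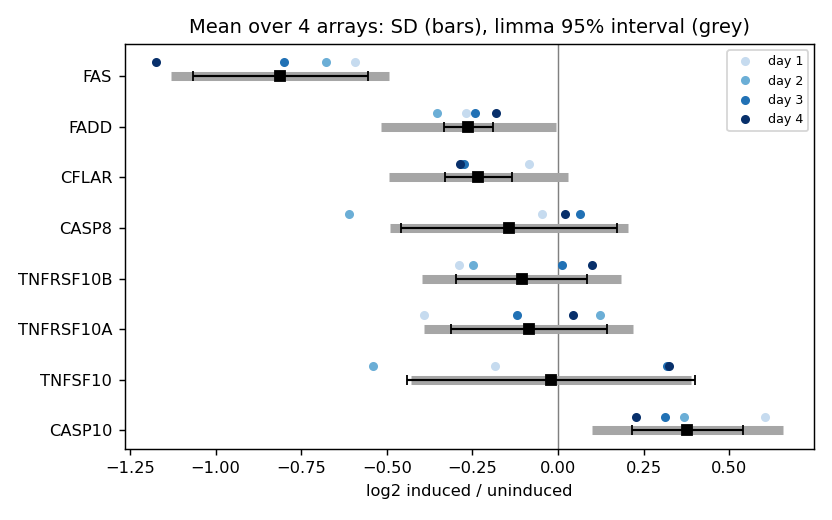
Mean log2 ratio of induced over uninduced cells (horizontal axis) of each member over the 4 arrays. Black squares are means with SD bars, thick grey lines the limma 95% intervals, and blue dots the 4 day averages, darker for later days. The intervals of FAS (-1.13 to -0.49), FADD (-0.518 to -0.0052) and CASP10 (0.0985 to 0.66) lie apart from 0. Those of CFLAR, CASP8, the TRAIL receptors and TNFSF10 include it.

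Members past 1.5-fold (0.585 on the log2 scale) were few on each array. On day 1 FAS was past it on the lower side (10.6% of features were) and CASP10 on the higher side (7.53%). On day 2 FAS and CASP8 were lower by that much (12.6%) and no member higher (6.78%). FAS was the single such member on day 3, when 1.69% of features were that much lower and 3.58% that much higher, and on day 4, when the shares were 2.39% and 4.09%. The member median was -0.226, -0.318, -0.054 and 0.032 on days 1 to 4, against -0.062, -0.081, 0.017 and 0.012 over all features. The position of each member within the named genes is shown in the histograms by day.

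**Figure D3:**
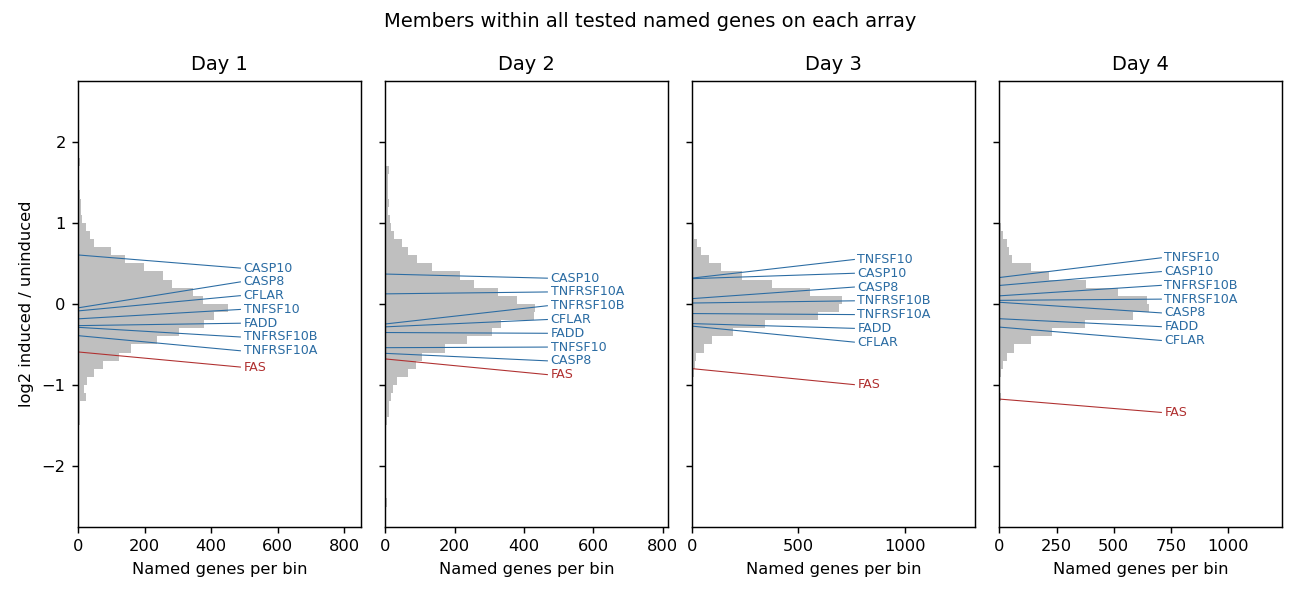
Histograms of the log2 ratio of induced over uninduced cells (vertical axis) over all named genes tested, by day, with the number of genes per bin of 0.1 on the horizontal axis and values beyond the axis drawn in the last bin. Lines lead from each member's value on the vertical axis to its name, FAS in red. FAS sits in the lower part of the distribution on days 1 and 2 and at its lower edge on days 3 and 4. The distribution is narrower on days 3 and 4.

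Of the genes with the day pattern most like that of FAS, measured by Euclidean distance over the 4 day averages among 3768 other named genes, ZYG11B was nearest (distance 0.301, against a median of 1.72). It read -0.578, -0.855, -0.989 and -1.33 on days 1 to 4. The chemokine receptor CXCR4, averaged over 8 probes, was the fourth nearest and read -0.103, -0.641, -0.739 and -1.1. ARHGAP19 (0.463), RAP2A (0.468) and NCAPG2 (0.505) made up the rest of the 5. Nearest to CASP10 were MXD4 (0.107), CTSC (0.115), GLCCI1 (0.116), EIF4G2 (0.135) and LMAN1 (0.135), against a median distance of 1.02.

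The other ligands and receptors of the family did not pass the test of the unweighted mean over all arrays. Of 16 listed, 11 were tested, with 0 lower and 0 higher (14 lower and 12 higher over all features). Of the 11 means 5 were below 0, against 56.0% of features, and the median was 0.045. TNFRSF1B and TNFRSF10D reached an unadjusted limma p under 0.05, as did 12.5% of all features. TNFRSF1B, the type 2 TNF receptor, which lacks a death domain, read -0.472, -0.482, -0.695 and -0.506 on days 1 to 4 (mean -0.54 ± 0.11; limma adjusted p = 0.141). The TRAIL decoy receptor TNFRSF10D read -0.356, -0.32, -0.338 and -0.27, with a mean of -0.32 ± 0.037 (limma adjusted p = 0.307). All 4 values of each lay below 0. TNFRSF1B was called with array weights and with days 3 and 4 alone, as FAS was (3.77% and 6.58% of features called). The decoy TNFRSF10C had a mean of -0.31 ± 0.3 over 3 arrays (limma adjusted p = 0.499). TNFRSF25, another death-domain receptor, read 0.423, -1.14, 0.618 and 0.901, so that day 2 stood apart in sign. TNFRSF25 was called with days 3 and 4 alone. FASLG, the ligand of FAS, read 0.644, 0.091, -0.433 and 0.112 (mean 0.1 ± 0.44).

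Among adaptors and regulators of the receptor complexes, TNFAIP3 (A20), a ubiquitin-editing enzyme that restrains signalling from these receptors, was lower in induced cells. It read -1.07, -1.52, -1.58 and -1.7 on days 1 to 4, 2.77-fold lower on average (-1.47 ± 0.28; limma adjusted p = 0.0178), and did not pass without the day 2, day 3 or day 4 array, with days 1 and 2 alone, after scaling the arrays, or with its probe with fewest missing values. It was the single gene called among 15 tested of 29 listed (1 lower, 0 higher), with 0.337% of all features called. In that list 10 of 15 means were below 0, against 56.0% of features, and the median was -0.13. FAIM, named as an inhibitor of FAS-mediated death, read 0.524, 0.546, 0.357 and 0.412 (mean 0.46 ± 0.09; limma adjusted p = 0.203). DEDD, a protein with a death effector domain, read 0.427, 0.512, 0.524 and 0.317 (0.44 ± 0.096; limma adjusted p = 0.208). Both were above 0 on all 4 days, and DEDD was called with array weights. PEA15, which also has such a domain and binds FADD, had a mean of -0.43 ± 0.14 (limma adjusted p = 0.231). The TRAF5 mean of 0.47 ± 1.01 rested on day 2, at 1.98, with the other days between -0.189 and 0.153.

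Of the caspases, the mitochondrial arm and caspase substrates, all 22 tested genes of 29 listed had means between -0.23 and 0.37, with a median of -0.021, and 0 were called in either direction. Of the 22, GSN and CASP4 reached an unadjusted limma p under 0.05, against 12.5% of all features. GSN (gelsolin, a caspase substrate) had a mean of 0.37 ± 0.13 and the inflammatory caspase CASP4 of 0.31 ± 0.053 (limma adjusted p = 0.275 and 0.329). MCL1, which protects plasma cells from death, had a mean of 0.28 ± 0.18, and AIFM1, a mitochondrial flavoprotein, of 0.25 ± 0.15. Means near 0 can join days of opposite sign: the mitotic survival gene BIRC5 read 0.892, 0.037, -0.431 and -0.644 on days 1 to 4, and was called with days 3 and 4 alone. The 3 lists are drawn in the plot of the other pathway genes.

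**Figure D4:**
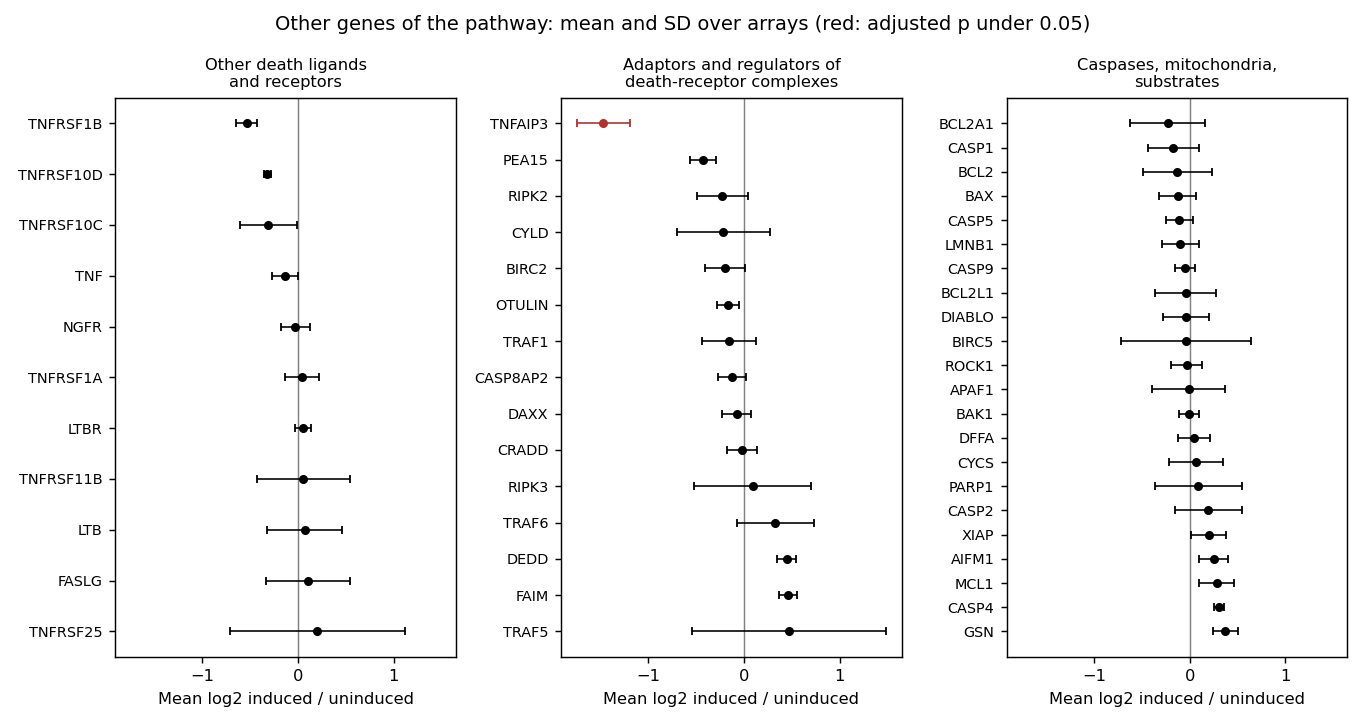
Mean log2 ratio of induced over uninduced cells (horizontal axis) with SD bars over the arrays, for the tested genes of 3 lists: other death ligands and receptors (11 genes), adaptors and regulators (15 genes), and caspases with the mitochondrial arm and substrates (22 genes). Red marks a limma adjusted p under the threshold, reached by TNFAIP3 at -1.47.

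No slope on day passed among the members (0 of 8 with limma, smallest adjusted p = 0.365, with 0 at an unadjusted p under 0.05) or over all features (0 of 6427, 0.0%, while 963 had an unadjusted p under 0.05). Slopes were negative for FAS, CASP10 and CFLAR and positive for the other 5.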

How the data were processed

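The deposited table holds log ratios per probe and array, read here as log2 values of the induced (Cy5) over the uninduced (Cy3) channel, after the dyes in the labels. No source used here gives the authors' background correction, normalization, spot filter or log base. Per the labels' protocols, 50 µg of total RNA was labelled per dye. Of 15246 probes, 10169 had 1 gene symbol, 4 several and 5073 none. Symbols were updated by Entrez identifier (10128 matched). Probes of a symbol were averaged per array.

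The mean over arrays was tested against 0 (values on at least 3 arrays), and the slope on day (values on all 4), with limma 3.58.1 in R 4.3.3 (two-sided), Benjamini-Hochberg adjustment over all features and a threshold of 0.05. The fits were tested on simulated data. The arrays are different days with 1 array each, with no label calling them separate cultures, so p-values measure the spread between these arrays only, and their number limits the precision. If the control was a single RNA, its own spread is left out.

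The members and lists were chosen with earlier results of these data known. Named genes were all members, called genes and the 4 largest absolute means of each list, and the 5 genes nearest to FAS and to the member with the highest mean. PEA15, FASLG, BIRC5, ICAM1, NFKBIA, HBB and HBA1 were named after their values were seen. Alternatives covered scaling, centring, probe choice, array weights, arrays left out and the filter on missing values.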

Additional observations from a re-analysis of the deposited data

How the results depend on the processing

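Over all features 26 were called on the mean. The count was 55 with every probe a feature, 291 with array weights, 42 with values on all 4 arrays, 569 with days 3 and 4 alone, 1 with days 1 and 2 alone and 3 to 5 with 1 array left out. It was also 3 after scaling the arrays to equal spread. Of the members 0 were called, and 1, FAS, taking each gene's probe with fewest missing values (-1.28, limma adjusted p = 0.0341), every probe a feature, array weights or days 3 and 4 alone. Of the genes in the 5 lists 1 was called, against 2 under that probe choice or with values on all 4 arrays, 4 with every probe a feature, 7 with array weights, 8 with days 3 and 4 alone, 0 with days 1 and 2 alone or with the arrays scaled, and 0 to 1 with 1 array left out. The list counts under these settings were added after seeing the data. No slope was called under any setting run. For the probe with fewest missing values FAS had a tie, since all 4 of its probes were complete. The tie was broken by probe identifier and fell on 16699_1, the most negative FAS probe. With every probe a feature the same probe was the one called, so these settings do not count separately for FAS.

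The FAS, FADD, CFLAR and CASP10 means kept their sign under all 13 alternatives, from -1.28 to -0.636 for FAS, -0.311 to -0.213 for FADD, -0.333 to -0.184 for CFLAR and 0.27 to 0.486 for CASP10. Signs turned for means near 0. TNFSF10 was 0.009 with arrays centred on their medians, 0.054 with the arrays scaled, 0.217 with array weights, 0.035 without day 1, 0.153 without day 2 and 0.322 with days 3 and 4 alone. CASP8 was 0.013 without day 2 and 0.043 with days 3 and 4 alone, TNFRSF10B was 0.055 with days 3 and 4 alone, and TNFRSF10A was 0.016 without day 1. With 1 array left out, the means ran from -0.135 to 0.153 for TNFSF10 and from -0.156 to 0.016 for TNFRSF10A. Of the slopes, FADD turned to -0.011 with complete probes or under that probe choice, and TNFRSF10A to -0.04 without day 1 (-0.04 to 0.144 with 1 array left out). The cause was not tested. Each ratio already sets induced against uninduced cells on the same array. With 1 array per day and no replicate numbers in the labels, the spread within a day could not be measured. No spot intensities were used here, so the signal over background behind a ratio is unknown.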

Other observations

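Values of NF-κB-dependent genes and of p53 targets other than the death receptors are given here. Among NF-κB-dependent genes outside apoptosis, 16 of 20 were tested and 0 were called, against 0.337% of all features. TNFAIP3, given above with the adaptors and called there, is not in this list. An unadjusted limma p under 0.05 was reached by 4 genes lower and 1 higher, against 12.5% of all features. Of the 16, 10 had means below 0, against 56.0% of all features, and the median was -0.12. NFKB2 read -0.765, -1.5, -0.763 and -0.507 on days 1 to 4 (mean -0.88 ± 0.43), RELB -0.94, -0.846, -0.652 and -0.472 (-0.73 ± 0.21), and CD74, the class II invariant chain, -0.219, -0.515, -1.02 and -0.712 (-0.62 ± 0.34). Limma adjusted p-values were 0.125 for NFKB2, 0.094 for RELB and 0.208 for CD74. NFKB2 and RELB were called with the probe of fewest missing values, with every probe a feature, with array weights and with days 3 and 4 alone, and CD74 in the last 3 of these. The adhesion receptor ICAM1 had a mean of -0.44 ± 0.27 (limma adjusted p = 0.286). The chemokine CCL3 was above 0 on all 4 days, at 0.569, 0.658, 0.786 and 0.762 (0.69 ± 0.1; limma adjusted p = 0.0741), and was called with array weights, with days 3 and 4 alone and with values on all 4 arrays.

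Of the p53 targets, 12 of 20 were tested and 0 were called, against 0.337% of all features. Of the 12, 7 had means below 0, against 56.0% of all features, and the median was -0.021. CCNG1 had a mean of 0.33 ± 0.1 and the cell-cycle inhibitor CDKN1A of 0.28 ± 0.23, while PLK3 and RRM2B had -0.26 ± 0.33 and -0.21 ± 0.18.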
